A study of Mus musculus with 12 samples.

Results

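The comparison of Pax5-deficient progenitors with Pax5-intact pro-B cells rests on 8 of the 12 libraries of the series, 4 per group, measured by full-length RNA-seq. The Pax5 KO group held sorted cells of the common lymphoid progenitor (CLP) and pre-pro-B stage from Pax5-/- fetal liver. The Pax5 WT group held sorted pro-B and pre-BI cells from Pax5+/+ fetal liver. The other 4 libraries of the series, from PAX5 P80R leukaemias, were left out of the fit. Genotype and sorted stage changed together, so the effect of losing Pax5 and the difference in stage cannot be told apart. The fetal age, the strain, the sort markers and whether a library came from a single fetus or a pool were not among the sources used here, and p-values measure only the spread between these libraries.

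Pax5 is the paired-domain transcription factor that commits progenitors to the B lineage. It activates genes of the B-cell receptor and its co-receptors and represses genes that belong to other lineages. B cells arise in steps in which the common lymphoid progenitor, which can still give rise to T, natural killer (NK) and dendritic cells, takes on E2A, EBF1 and then Pax5. The pro-B cell rearranges its immunoglobulin heavy chain and the pre-BI cell carries the surrogate light chain of the pre-B-cell receptor. In fetal liver these steps run next to erythroid and myeloid cell production.

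Values are deposited read counts divided by 1 factor per library, called scaled reads here, and each is given as mean ± SD over 4 libraries or library by library in the order 1 to 4. Differences are Pax5 KO minus Pax5 WT on the log2 scale after adding 1, with a standard error (SE) and the Benjamini-Hochberg adjusted p of limma over 11576 genes. The threshold was an adjusted p of 0.05. For genes with almost no reads in a group the log2 difference depends on the added 1 and says little about size. Depth was 36871775 to 43513852 reads in Pax5 KO and 33191950 to 39465256 in Pax5 WT. Rank correlations between libraries were 0.9955 to 0.9975 within Pax5 KO, 0.9905 to 0.9976 within Pax5 WT and 0.9112 to 0.9219 between the groups. Library 4 of Pax5 WT stood apart from the other 3 of its group. Its typical gene differed from their mean by 0.216 on the log2 scale, against 0.0988 to 0.142 for the other Pax5 WT libraries and 0.0861 to 0.125 for those of Pax5 KO. Values without it are given where it changes the call of a named gene or moves a list median given here by more than the spread between replicates. Genes entered the test at 10 or more scaled reads in at least 4 of the 8 libraries. Of those tested, 454 were at 10 or more in every Pax5 KO library and in no Pax5 WT library, and 131 the reverse. These passed the filter through 1 group only, so that they had to differ, and their number is given beside the lists that hold many of them.

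The targeted gene was lower in every Pax5 KO library than in any Pax5 WT library. Genotype and stage changed together, so its level is no check of the genotype apart from the stage. Pax5 was at 229.9, 247, 267 and 266 scaled reads in the Pax5 KO libraries and 7315, 6359, 7067 and 6194 in the Pax5 WT libraries (difference -4.73 log2, SE 0.08, adjusted p = 2.42e-13). Which exons these remaining Pax5 KO reads cover is not visible in gene-level values. The labelled stages were checked against marker genes. All 12 CLP and pre-pro-B markers, among them Flt3, Il7r, Kit, Ly6d and Cd34, were above 100 scaled reads in every Pax5 KO library. In Pax5 WT, 8 of these 12 passed that level in every library, and Flt3, Cd34, Ccr9 and Cd27 were at 34.0 or below in each of its libraries. All 12 pro-B and pre-BI markers were above 100 in every Pax5 WT library. In Pax5 KO, 8 of these 12 also passed that level in every library, among them Igll1, Vpreb1, Rag1, Cd79a and Spn. Genes below it in Pax5 KO included Enpep and Bst1 in every library and Blnk in 1.

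The populations differed across most of the expressed genome. Of the 11576 genes tested, 4174 (36.1%) were higher and 3510 (30.3%) lower in Pax5 KO. Among those with a log2 difference of at least 1, 1807 (15.6%) were higher and 793 (6.85%) lower. The groups did not overlap for 60.8% of genes tested, and the median size of difference was 0.41. Small differences were therefore common to most genes, and the median over all genes was 0.05. Higher and lower genes were near balance when all sizes were counted, with 1.19 higher per lower gene. The ratio rose to 2.28 at a log2 size of at least 1 and to 3.16 at a size of at least 3. At that size, an 8-fold difference, 727 genes were higher and 230 lower. The 727 genes took 2.32% to 2.39% of all reads in Pax5 KO and 0.107% to 0.110% in Pax5 WT. The 230 genes took 0.107% to 0.112% in Pax5 KO and 1.75% to 1.78% in Pax5 WT. In sorted bulk samples, fewer cells that express a gene and less RNA per cell cannot be told apart.

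**Figure D1:**
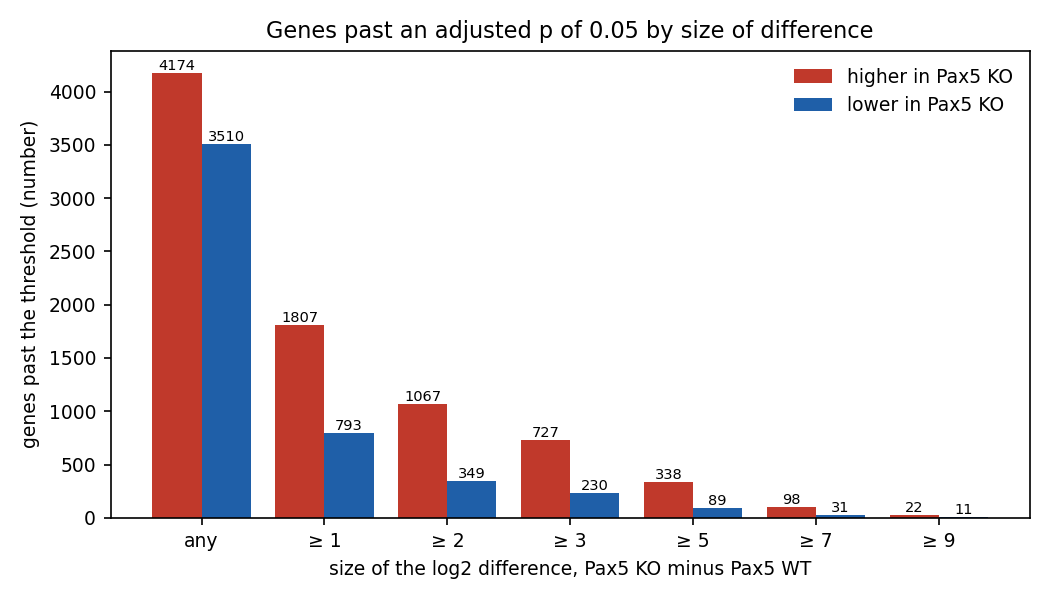
Genes past an adjusted p of 0.05 (y axis, number) by the smallest size of log2 difference counted (x axis), in red for higher and in blue for lower in Pax5 KO. The bars stand at 4174 and 3510 with no size limit and at 727 and 230 from a log2 size of 3.

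Genes that were on in a single group stood at the ends of the ranking. The 12 largest rises were Mpo, Siglech, Calm4, P2ry14, Jchain, Runx2, P2ry12, Ccr9, Prss2, Tns1, Ccl3 and Ptger3. Among the largest falls were Enpep, Alpl, Grb7, Vpreb3, Lgr5, Ms4a1, Cplx2, Fxyd6, Ceacam9, Gm266 and Bcar3. Jchain, the joining chain of secreted immunoglobulins, had the largest gain in share of reads, from 0.000373% in Pax5 WT to 0.343% in Pax5 KO. It was present in every Pax5 WT library too, at 138, 79, 106 and 175 scaled reads. Ifitm1, an interferon-induced membrane protein, took 0.202% of reads in Pax5 KO and 0.0217% in Pax5 WT. On the other side, Cd24a, a surface sialoglycoprotein of immature B cells, fell from 0.22% to 0.0248%. Ucp2, a mitochondrial carrier, fell from 0.346% to 0.127%. Lars2, a mitochondrial leucyl-tRNA synthetase, was the gene with the most reads in all 8 libraries and made up 0.72% of Pax5 KO reads and 0.947% of Pax5 WT reads (difference -0.48 log2, SE 0.09, adjusted p = 0.00057).

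In all, 48 genes had no read in any Pax5 WT library and at least 100 reads in every Pax5 KO library. Among them were Calm4, Siglech, Prss2, Ptger3, Calm5, Pparg, Hgfac and Hs3st1. Calm4, a calmodulin-like protein, was at 1287, 1151, 1086 and 1263, at least 421-fold higher on a floor of 3 reads per library. Pparg, the lipid-sensing nuclear receptor, was at 581, 647, 623 and 626, at least 218-fold higher. The reverse held for 8 genes, which were Fxyd6, Ceacam9, Gm266, Tmc7, Il5ra, Rd3l, Klhl14 and Kcnma1. Il5ra, the interleukin-5 receptor alpha chain, was at 534, 359, 376 and 311 in Pax5 WT and at 0 in Pax5 KO, at least 166-fold lower in Pax5 KO. Fxyd6, a regulator of the sodium pump, was at 723, 731, 786 and 879 in Pax5 WT and at 0 in Pax5 KO, at least 329-fold lower.

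Genes known to be activated by Pax5 separated the groups by wide margins, and 3 of them went the other way. Of 28 listed genes 26 passed the filter on low values, and of these 23 were lower, 4 of them through Pax5 WT only, and 3 higher (median -4.18 log2). Ikzf3, which encodes Aiolos, was at 0, 4.93, 2.57 and 4.33 in Pax5 KO versus 1332, 1236, 1193 and 915 in Pax5 WT (difference -8.47 log2, SE 0.47, adjusted p = 8.23e-09). Cplx2, a complexin of vesicle fusion, was at 7.02 ± 3.55 in Pax5 KO versus 5691 ± 247 in Pax5 WT, and Bcar3, a guanine nucleotide exchange adaptor, at 4 ± 5.1 in Pax5 KO versus 1799.5 ± 34.7 in Pax5 WT. These genes were nearly silent in every Pax5 KO library. Other members were reduced and still clearly present. Cd79a, the Ig-alpha signalling chain, was at 2485, 2486, 2343 and 2626 in Pax5 KO, and Nedd9, a scaffold of cell migration, was at 668 ± 37.6 against 12001 ± 1424. Plekha2, Cd72 and Gfra2 fell least, by log2 differences of -0.97, -0.55 and -0.36. The Gfra2 call was lost when libraries were scaled to equal total reads (adjusted p = 0.0773) and without library 3 of Pax5 WT (adjusted p = 0.0517). The 3 members that rose were the guanine nucleotide exchange factor Rasgrp3, at 12100.4 ± 457 against 314 ± 46.7, the lipocalin Lcn4, at 511 ± 39.7 against 30.3 ± 5.69, and the Toll-like receptor homologue Cd180, at 1330.4 ± 79.5 against 543 ± 88.6.

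Of 24 listed Pax5-repressed genes 21 passed the filter, and all 21 were higher in Pax5 KO (median 4.00 log2), 4 of them through Pax5 KO only, and 20 passed a log2 difference of 1. The list held receptors, chemokines and signalling genes of other lineages. Ccl3, a macrophage inflammatory chemokine, was at 2496, 2022, 1904 and 2275 in Pax5 KO versus 0, 2, 5.93 and 1.72 in Pax5 WT. Cd7, a T and NK cell receptor of the immunoglobulin family, had 1 read in all 4 Pax5 WT libraries together and was at 731 ± 44.2 in Pax5 KO. Cd33, a sialic acid-binding receptor of myeloid cells, was at 2531 ± 126 against 5.38 ± 5.65. Fcgr3, an activating Fc receptor, was at 232 ± 27.6 against 0.709 ± 1.42. Cd47, Ramp1 and Sdc1 were expressed in both groups and rose least, by log2 differences of 1.18, 1.17 and 0.53. The median of this list was 3.75 without library 4 of Pax5 WT. Members of both lists were known from earlier work on Pax5 and chosen with results of these libraries in view, so their direction is a description.

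The promoters of strongly changed members of both lists are shown because both lists are defined by a DNA-binding factor. They are RefSeq sequences of GRCm38.p6, the 250 bases before the start, 5′ to 3′ on the strand of the gene. Capitals mark matches to 6 short motifs searched on both strands, which were CCCNNGGG for EBF1, GCNTGAC for the core of the PAX5 motif, GAGGAAGT for PU.1, CAGCTG and CAGGTG for E proteins and TGTGGT for RUNX factors. Cd7 had no entry. The windows lie at chr10:75948050-75948299 (+) for Vpreb3, chr13:54302306-54302555 (+) for Cplx2, chr11:83649379-83649628 (-) for Ccl3 and chr5:147400490-147400739 (-) for Flt3.
Vpreb3: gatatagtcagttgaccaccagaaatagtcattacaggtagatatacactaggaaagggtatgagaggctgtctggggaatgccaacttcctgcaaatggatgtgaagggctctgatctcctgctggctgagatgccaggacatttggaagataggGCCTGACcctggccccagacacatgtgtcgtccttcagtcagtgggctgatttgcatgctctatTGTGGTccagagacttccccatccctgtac
Cplx2: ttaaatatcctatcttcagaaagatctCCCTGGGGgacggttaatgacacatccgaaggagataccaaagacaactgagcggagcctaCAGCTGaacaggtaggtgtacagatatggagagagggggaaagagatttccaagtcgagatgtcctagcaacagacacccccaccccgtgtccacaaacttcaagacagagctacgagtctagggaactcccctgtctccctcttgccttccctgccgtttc
Ccl3: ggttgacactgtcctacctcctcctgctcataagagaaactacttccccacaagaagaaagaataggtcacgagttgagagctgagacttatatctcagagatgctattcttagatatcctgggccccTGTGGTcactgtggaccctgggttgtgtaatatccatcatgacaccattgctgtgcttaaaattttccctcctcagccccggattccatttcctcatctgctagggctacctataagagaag
Flt3: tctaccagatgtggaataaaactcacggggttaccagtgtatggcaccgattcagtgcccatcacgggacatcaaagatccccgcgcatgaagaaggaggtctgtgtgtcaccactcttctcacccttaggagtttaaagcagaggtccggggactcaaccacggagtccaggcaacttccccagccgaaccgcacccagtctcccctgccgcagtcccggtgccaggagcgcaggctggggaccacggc
The PAX5 letters of Vpreb3 lay 94 to 88 bases before the start and its RUNX letters 30 to 25. Cplx2 held EBF1 letters 223 to 216 and E-protein letters 162 to 157 bases before the start, and Ccl3 held RUNX letters 122 to 117. The matches shown do not overlap each other. The Flt3 window held none of the 6 motifs, which says only that these letters are not in this window.

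These letters were common in promoters as a whole, so a match describes the sequence and is no site. Of 11748 promoters of 9208 tested genes, 10.3% held the PAX5 letters. The share was 9.53% of 703 promoters of genes higher by at least 3 on the log2 scale and 7.56% of 225 promoters of genes lower by that size. The RUNX letters were in 19.2% of the promoters of the higher genes, in 8.89% of those of the lower genes and in 11.3% of those of all tested genes. PU.1 letters were in 4.27%, 1.78% and 2.63% in the same order. EBF1 letters were in 17.4%, 18.7% and 15.5%. CAGCTG was in 15.1%, 16.9% and 11.7%, and CAGGTG in 19.5%, 20.9% and 15.3%. Among all 32851 promoters of the table, the shares were 8.79% for the PAX5 letters and 14% for the RUNX letters.

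The transcription factors of the B lineage fell in a graded way, from near absence to no detectable difference. Of 25 tested factors, 18 were lower and 5 higher, against 30.3% and 36.1% of all genes tested, and 2 missed the threshold (median -0.99 log2). At the far end were Ikzf3 (-8.47) and Pou2af1 (-4.87), the coactivator of Oct proteins, followed by Pax5 itself (-4.73). Lef1, a partner of beta-catenin in early B and T cells, was at 557 ± 51 against 11993 ± 246, and Spib, an Ets factor close to PU.1, at 539 ± 74.1 against 7822 ± 567. Irf4 was at 221 ± 42.4 against 2866 ± 482 and Bach2, a repressor of plasma cell genes, at 1279 ± 139 against 6599.8 ± 622. These 4 factors remained readable in every Pax5 KO library and were more than 4-fold below Pax5 WT.

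The factors that act before Pax5 changed less. Ebf1 was at 6639, 5725, 5849.6 and 5736 in Pax5 KO versus 18651, 17954, 20222 and 18446 in Pax5 WT, so that no library overlapped. Tcf3, which encodes the E2A proteins, was at 8029, 8439.6, 7937 and 7965 against 25386, 26603, 25664 and 23515 in the same order (difference -1.64 log2, SE 0.05, adjusted p = 6.64e-11). Foxo1, which drives Rag and Il7r expression, was at 3193 ± 57.9 against 6327 ± 196 (difference -0.99 log2, SE 0.05, adjusted p = 5.08e-09). Myb and Bcl11a, both needed for early lymphoid progenitors, differed by -0.19 and -0.16 log2. The Bcl11a call was lost in 3 of 8 fits that left out a library, with adjusted p of 0.0748 to 0.084, and both calls were lost when libraries were scaled to equal total reads. Sox4 was at 12112 ± 924 against 12241 ± 614, a difference within the spread of the libraries (adjusted p = 0.826). Moving the other way were Ikzf1, which encodes Ikaros (0.55), Runx1 (0.70), Foxo3 (0.74), Spi1, which encodes PU.1 (0.91), and the Krüppel-like factor Klf3 (2991 ± 163 against 991 ± 127).

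The E proteins and their Id inhibitors were split. Tcf3 fell, and Tcf4 and Tcf12 were slightly lower, at -0.40 and -0.38 log2. Id2, the E-protein inhibitor needed for innate lymphoid and NK development, was at 3228, 2755, 2884 and 2932 in Pax5 KO versus 329.8, 277, 279 and 399 in Pax5 WT (difference 3.21 log2, SE 0.11, adjusted p = 1.33e-10). Id3 had the opposite pattern, at 687, 707, 597 and 691 against 5424, 5711, 5532 and 6864 (difference -3.13 log2, SE 0.09, adjusted p = 1.45e-11). Id1 was low and higher in Pax5 KO, at 155 ± 27.8 against 42.4 ± 11.4. The groups did not overlap for any of these 3 inhibitors.

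Genes of the pre-B-cell receptor included chains and an adaptor that fell by wide margins and signalling genes that differed in both directions. Of 25 tested members, 17 were lower and 6 higher, against 30.3% and 36.1% of all genes tested (median -0.66 log2). Vpreb3, a chain that associates with the pre-B-cell receptor, was at 41.9, 16.4, 26.6 and 13.7 in Pax5 KO versus 18036, 19806, 20149.7 and 24256 in Pax5 WT. Blnk, the adaptor that couples Syk to its substrates, was at 99, 139.7, 109.7 and 116 against 15429, 15043, 15405 and 16933. Both sat far below any Pax5 WT library. The surrogate light chain genes Igll1 and Vpreb1, which are expressed before Pax5, were at 17589.7 ± 582 against 70531 ± 7617 and 4043 ± 113 against 34369 ± 2646. Vpreb2 was at 8549.6 ± 256 against 13584 ± 1407, a log2 difference of only -0.66. The 3 surrogate light chain genes thus fell by different amounts. Vpreb1 and Vpreb2 are near-identical copies, so how reads that match both were counted bears on their split, and the sources used here do not state that handling.

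Among the kinases, Blk fell from 1421 ± 85.9 to 394 ± 23, and Prkcb, protein kinase C beta, from 13347 ± 722 to 3729.8 ± 159. Btk, Syk and Lyn fell by less than 1 on the log2 scale (-0.50, -0.44 and -0.31), and the Syk values overlapped through library 4 of Pax5 WT, at 10485, 9799, 9424 and 6833 in Pax5 WT against 6378, 6831, 7169.7 and 6179.7 in Pax5 KO. Plcg2, the phospholipase downstream of Blnk, was higher in Pax5 KO, at 21842, 24071, 22890.1 and 22479 against 14597, 13746, 13721 and 10819 (difference 0.80 log2, SE 0.08, adjusted p = 3.23e-06). Library 4 was the lowest of the Pax5 WT libraries for Plcg2, and without it the log2 difference was 0.70. Rasgrp3, described among the Pax5-activated genes, rose most in this list, by 5.28 log2. Nfatc1, a calcium-responsive factor, was higher too, at 5256 ± 284 against 2507 ± 384.

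**Figure D2:**
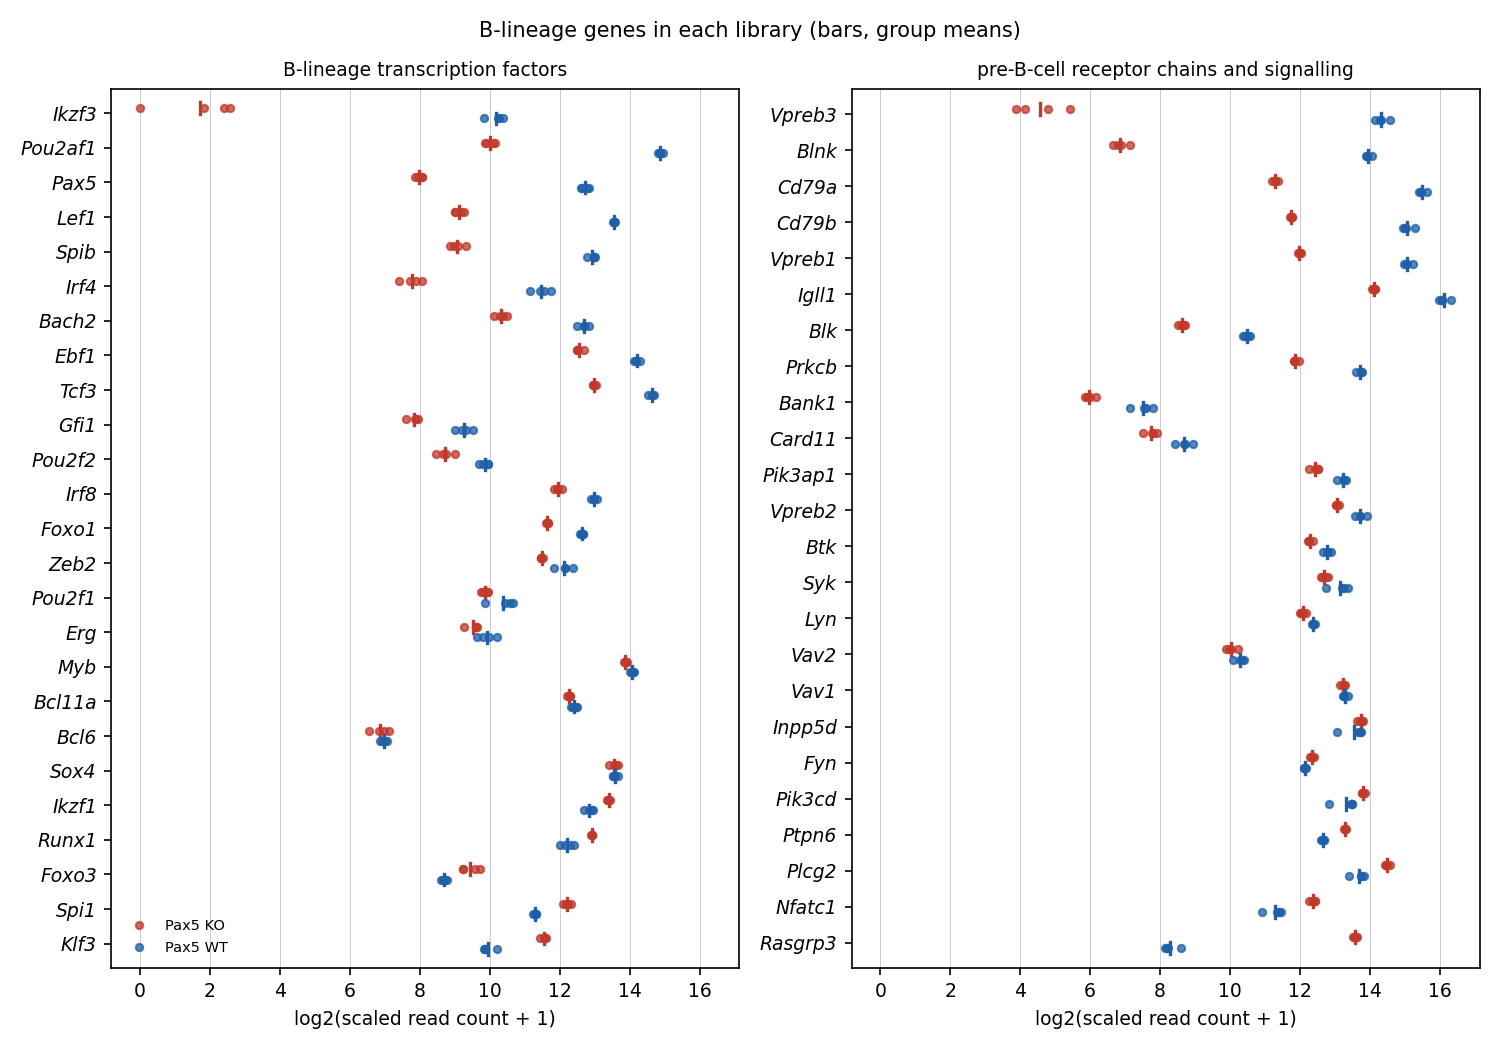
Level of tested members of the lists of B-lineage transcription factors and of pre-B-cell receptor genes in each library, as log2 of the scaled reads plus 1 (x axis). Points are libraries and bars group means, in red for Pax5 KO and in blue for Pax5 WT, ordered by difference. The gap closes from Ikzf3 and Vpreb3 at the top, and Klf3 and Rasgrp3 at the bottom are higher in Pax5 KO.

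Surface molecules used to stage B cells mostly fell. Of 23 tested, 18 were lower and 5 higher, against 30.3% and 36.1% of all genes tested (median -1.58 log2, and -0.73 with a filter at 100). Of the 18, 4 passed the filter through Pax5 WT only. Enpep, the BP-1 aminopeptidase, was at 9.14, 0, 0 and 0 in Pax5 KO versus 19318, 19611, 19071 and 18275 in Pax5 WT. Ms4a1, which encodes CD20, was at 0, 4.11, 0 and 0 against 1436, 1102, 1136 and 1297, with all its Pax5 KO reads in library 2. Cd38 was at 2.61 ± 2.8 against 719.6 ± 70.6, Bst1, an ectoenzyme, at 41.1 ± 14.8 against 2437 ± 163 and Fcrla at 29.8 ± 7.63 against 1399.9 ± 108. Cd24a fell from 73245 ± 5083 to 7759 ± 353. The members that rose included Ly6d, which marks B-biased lymphoid progenitors, at 13403 ± 615 against 3834 ± 359.6, Ptprc, the CD45 phosphatase, at 20072 ± 1289 against 5368 ± 360.3, and Ly86, the partner of Cd180, at 338 ± 18.9 against 6.68 ± 4. Cd180 and Ly86, whose products form one complex, were thus both higher.

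Genes of V(D)J recombination went both ways. Of 17 tested, 6 were higher, 7 lower and 4 not past the threshold, where 36.1% of all genes tested were higher and 30.3% lower. The recombinase genes differed in sign: Rag1 was at 4580.2, 5143, 5370.4 and 4960.4 in Pax5 KO versus 3977, 3789, 3674 and 2657 in Pax5 WT (difference 0.52 log2, SE 0.11, adjusted p = 0.00119), and Rag2 was at 1724, 2286, 1913 and 2000.2 against 4046, 4065, 3927 and 3655 (difference -0.99 log2, SE 0.08, adjusted p = 3.88e-07). Library 4 held the lowest Rag1 value of Pax5 WT. Dntt, the terminal transferase that adds bases at junctions, was at 2012 ± 135 against 1344 ± 85.4 (difference 0.58 log2, SE 0.07, adjusted p = 2.02e-05). Lig4, the ligase that seals the breaks, was at 92.1, 66.6, 91.7 and 72.2 in Pax5 KO versus 1171, 995, 1007 and 962 in Pax5 WT (difference -3.67 log2, SE 0.14, adjusted p = 2.04e-10). The other end-joining factors Nhej1, Paxx, Dclre1c and Prkdc did not pass, and Xrcc6, which encodes Ku70, was higher (0.76) while its partner Xrcc5 was lower (-0.33).

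Cytokine receptors were shifted upward in Pax5 KO. Of 29 tested receptors, 21 were higher, 4 of them through Pax5 KO only, and 4 lower. By at least 1 on the log2 scale 13 (44.8%) rose, against 15.6% of all genes tested. Genes that passed the filter through 1 group only had to differ. Among the rest, 17 of 25 were higher and 4 lower, against 3721 and 3379 of 10991 over all genes. Flt3, the receptor of early lymphoid progenitors, was at 12388, 14303, 12856 and 13189 in Pax5 KO versus 34, 24, 15.8 and 28.4 in Pax5 WT (difference 9.00 log2, SE 0.18, adjusted p = 1.01e-12). Csf1r, the macrophage colony-stimulating factor receptor, was at 989, 1015, 1078 and 1013 against 17, 0, 1.98 and 6.88. Il2rb, the shared chain of the receptors for interleukins 2 and 15, was at 246, 224, 231 and 244 in Pax5 KO and at 0 in Pax5 WT, at least 83.1-fold higher. Il6st, the gp130 chain, was at 2970.1 ± 162 against 199 ± 36.7 and Il21r at 1339.5 ± 175 against 179 ± 8.85. Il7r and Kit, receptors on which B-cell progenitors also depend, differed by less than 1 on the log2 scale. Il7r was at 6235, 5357, 5619.9 and 5708 in Pax5 KO versus 3925, 4034, 4115 and 4105 in Pax5 WT (difference 0.50 log2, SE 0.06, adjusted p = 9.79e-06), and Kit at 4937 ± 418 against 5110.1 ± 972 did not pass (adjusted p = 0.839). Library 4 held the lowest Kit value of Pax5 WT, and without it Kit was lower in Pax5 KO (log2 difference -0.18, adjusted p = 0.0188). Tgfbr2 had the largest fall of this list, at 986 ± 65.8 against 2051 ± 239. Of 28 tested genes in the wider family of interleukin receptors, 19 were higher, 6 of them through Pax5 KO only, and 3 lower, 2 of them through Pax5 WT only. The largest difference of this family was the fall of Il5ra, which had no read in Pax5 KO. Il18rap was at 2063 ± 109 against 19.7 ± 15.3 and Il12rb2 at 263 ± 37.3 against 0.731 ± 0.943.

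Genes of the JAK and STAT pathway rose together by small amounts. Of 21 tested, 17 were higher and none lower, against 36.1% and 30.3% of all genes tested (median 0.43 log2, against 0.05 over all genes). The largest rises were in the feedback inhibitors Socs1, at 413, 379, 387 and 498 against 77.5, 112, 123 and 86, and Socs3, at 375 ± 52.2 against 114 ± 17.9. Socs2, a STAT5 target, was at 18657 ± 558 against 18602 ± 1380.0 and did not pass (adjusted p = 0.926). Stat3 and Pim1 rose by 0.90 and 0.87 log2. In library 4 of Pax5 WT the members of this list differed from the other 3 libraries by a median of -0.284 log2, and the list median was 0.34 without it.

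Genes of stem and multipotent progenitors were mostly higher in Pax5 KO, and those of the most primitive stem cells were at or near 0. Of 21 tested, 14 were higher and 4 lower, against 36.1% and 30.3% of all genes tested (median 0.67 log2, and 1.20 with a filter at 100). Cd34 was at 2442, 2856, 2644 and 2884 in Pax5 KO versus 6.62, 3, 3.95 and 10.3 in Pax5 WT. Runx2 was at 2355, 1942, 2166 and 2122 against 7.56, 0, 0 and 3.44, Angpt1, a ligand of the Tie2 receptor, at 545 ± 81 against 54.6 ± 22.8 and Egfl7 at 9489.6 ± 227 against 999 ± 111. Ly6a, which encodes Sca-1, was at 2753 ± 133 against 682 ± 52.9. Mecom and Myct1 had no read in any library, and Procr and Hlf had group means of 1.48 or below. Slamf1, a receptor of stem cells, was low in both groups and lower in Pax5 KO, at 12.8 ± 2.17 against 46.7 ± 27.8.

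The Hox genes on in Pax5 KO were few. Of 15 members of the HoxA list with Meis and Pbx factors, 5 were tested and 4 rose, 2 of them through Pax5 KO only. Hoxa7 was at 605, 703, 624 and 718 in Pax5 KO versus 3.78, 8, 1.98 and 12.9 in Pax5 WT, and Hoxa9 at 271, 287, 339 and 271 against 0, 0, 0 and 1.72. Meis1, their DNA-binding partner, was at 968, 967, 972 and 822 against 58.6, 67, 45.5 and 26.7 (difference 4.28 log2, SE 0.23, adjusted p = 7.37e-09). Hoxa11 and Hoxa13 had no read in any library. Pbx3 was at 79.6 ± 13.1 against 79.4 ± 19.4 and did not pass (adjusted p = 0.942). Library 4 held the highest Pax5 WT value of Hoxa7 and Hoxa9 and the lowest of Meis1.

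Of the fetal program, which acts through the RNA-binding protein Lin28b, 9 of 10 tested genes rose, against 36.1% of all genes tested. Hmga2, a chromatin protein repressed by let-7, was at 4099, 3447, 3606 and 3629.8 in Pax5 KO versus 15.1, 20, 9.89 and 13.8 in Pax5 WT. Dlk1, an imprinted ligand, was at 2290.1, 2432, 2284 and 2412 against 14.2, 10, 21.8 and 31.8. Lin28b was at 668 ± 74.1 against 261 ± 61.9, Arid3a at 4938 ± 42.1 against 1547 ± 355 and Igf2bp3 at 5803 ± 219.6 against 3975 ± 115 (difference 0.55 log2, SE 0.05, adjusted p = 2.00e-06). Both groups were fetal and both expressed Lin28b and Igf2bp3, and only Hmga1 fell in this list (-0.23).

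Markers of several other lineages rose, while several defining genes of committed T and NK cells were at or near 0. The counts below stand against 36.1% higher and 30.3% lower over all genes tested. Of 27 Notch and T-lineage genes 21 passed the filter, of which 17 were higher and 2 lower (median 2.77 log2), and 5 of the 17 passed through Pax5 KO only. Notch1, the receptor that starts T-cell development, was at 11074, 9917, 10161 and 9586 in Pax5 KO versus 776, 776, 776 and 345 in Pax5 WT (difference 4.00 log2, SE 0.22, adjusted p = 6.66e-09), with library 4 the lowest of Pax5 WT. Cd27 was at 2360.1 ± 109 against 7.81 ± 3.36 and Cd28, a costimulatory receptor, at 1766 ± 95.8 against 23.6 ± 6.31. Lck, the T-cell kinase, was at 2374 ± 32.6 against 434 ± 56.4 and Tcf7, the first T-lineage factor, at 278 ± 24.3 against 48 ± 28.4. The Notch targets were split, with Hes1 at 3991 ± 403 against 1850.2 ± 265 and Hes5 lower in Pax5 KO, at 76.9 ± 5.81 against 134 ± 16.3. Several genes of committed T cells were at or near 0 in both groups: the Pax5 KO and Pax5 WT means were 0.381 and 0 for Bcl11b, 0.857 and 0 for Cd3e and 1.45 and 0 for Ptcra. Cd3d and Cd3g, which also missed the filter, had means of 3.3 and 16.9 in Pax5 KO and 1.39 and 0 in Pax5 WT. The summed level of the T-lineage list ranged over 26307 to 28704 in Pax5 KO and 17143 to 18120.0 in Pax5 WT. Lef1, described among the B-lineage factors, had the largest fall of this list (-4.43 log2) and made up most of the Pax5 WT sum.

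Of 23 genes of NK and innate lymphoid cells 15 passed the filter, and 14 were higher and none lower (median 5.94 log2, 4.24 with genes at 0 set to their bound and 3.17 with 10 added before the log), and 8 of the 14 passed through Pax5 KO only. Tyrobp, the DAP12 adaptor, was at 3635, 3622, 3212 and 3848 in Pax5 KO versus 14.2, 2, 2.97 and 11.2 in Pax5 WT. Fcer1g, the gamma chain of Fc receptors, was at 6706 ± 219 against 46.8 ± 23.8, Klrd1, which encodes CD94, at 5194 ± 256 against 59.4 ± 5.62 and Tox, a chromatin factor of lymphoid fates, at 1559.7 ± 91.8 against 7.53 ± 1.83. Klri2 was at 295, 281, 259 and 355 in Pax5 KO and at 0 in Pax5 WT, at least 105-fold higher. The factors that define NK cells were near 0, with means of 2.42 and 0 for Eomes, 3.71 and 0.86 for Tbx21 and 4.8 and 0 for the NK receptor Ncr1. Prf1 and Gzmb, which also missed the filter, had means of 11.7 and 5.91 in Pax5 KO and 0.989 and 0 in Pax5 WT. The list summed to 22066 to 23800.0 in Pax5 KO and 755 to 1093 in Pax5 WT.

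Of 21 plasmacytoid dendritic cell genes 19 passed the filter, and 13 rose, 5 of them through Pax5 KO only, and 5 fell (median 3.94 log2). The receptor Siglech was at 1224, 1187, 1203 and 1166 in Pax5 KO and at 0 in Pax5 WT. Ccr9, the gut-homing receptor also used by these cells and by thymus-seeding progenitors, was at 3150.4, 3462, 3654 and 3525 against 5.67, 0, 7.91 and 3.44. Tlr7, the sensor of single-stranded RNA, was at 1833, 2099.6, 1941 and 1887 against 13.2, 35, 3.95 and 21.5. Irf7, the regulator of interferon production, was at 741 ± 9.8 against 32.1 ± 15.7 and Mpeg1 at 924 ± 42.1 against 3.89 ± 2.4. Transcription factors of the list were split, with Irf7 and Runx2 higher and Spib, Irf8, Zeb2, Tcf4 and Bcl11a, which B-lineage cells also express, lower in Pax5 KO, and Tlr9 was at 18.4 ± 5.76 against 12.3 ± 5.41 and did not pass. Klk1 and Cd209d had no read in any library, and the list summed to 37931 to 39631 in Pax5 KO and 35807 to 39746 in Pax5 WT.

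Of 25 myeloid genes 22 passed the filter, and 19 rose, 10 of them through Pax5 KO only, and 2 fell (median 5.66 log2, 3.96 with genes at 0 set to their bound and 2.87 with 10 added before the log). The granule proteases and enzymes of the earliest granulocyte precursors led. Mpo was at 4655, 4856, 4887 and 5124 in Pax5 KO versus 0, 4, 0.989 and 0 in Pax5 WT, and Prtn3, proteinase 3, was at 1960.4, 1961, 1777 and 2174 against 11.3, 4, 13.8 and 12.9. Elane, the neutrophil elastase next to it, was low at 54.8, 22.2, 59.1 and 57.1 in Pax5 KO and at 0 in Pax5 WT. Cebpa, the factor that sets the granulocyte fate, was at 46.4, 61.6, 88.3 and 72.2 against 0, 1, 0 and 0 and Cebpb at 660.4 ± 39.9 against 8.45 ± 4.89. Genes of later granulocytes were present at low counts, with S100a8 at 155 ± 26.6 and Ltf at 79.3 ± 22.3 in Pax5 KO and both at 0 in Pax5 WT. Camp, another late granule gene, was near 0, with means of 2.83 and 0 in Pax5 KO and Pax5 WT. Gfi1 and Anxa1 fell, at 227 ± 22.3 against 620.1 ± 94.9 and 2450.0 ± 207 against 8344 ± 431. The myeloid list summed to 83912 to 91048 in Pax5 KO and 47467 to 50209 in Pax5 WT.

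Of 22 macrophage and monocyte genes, 11 were tested and 9 rose, 3 of them through Pax5 KO only. Cx3cr1, the fractalkine receptor, was at 825, 944, 888 and 995 in Pax5 KO versus 0, 4, 0 and 0 in Pax5 WT, and Mrc1, the mannose receptor, at 823 ± 102 against 11.5 ± 7.83. Adgre1, which encodes F4/80, was low at 48, 67.4, 48.9 and 44.1 and at 0 in Pax5 WT. Other genes of tissue macrophages, namely C1qc, Cd5l, Timd4 and Spic, had no read in either group, and Clec4f was lower in Pax5 KO, at 79.9 ± 18.6 against 162 ± 20.7. The list summed to 4895 to 5388 in Pax5 KO and 273 to 326 in Pax5 WT. All 6 tested genes of the megakaryocyte and mast cell list passed the filter through Pax5 KO only, which fixed their direction, and the list of 17 summed to 418 to 579 in Pax5 KO and 8 to 9.89 in Pax5 WT, with Gp9 at 115 ± 14.1 against 0.995 ± 1.15 and the mast cell protease Mcpt8 at 88.3, 49.3, 51.4 and 102 against 0. Other members of this list, Gp1bb, Fcer1a, Ms4a2 and Prss34, had no read in either group. Itga2b and Pf4 were near 0, with Pax5 KO means of 0.181 and 0.785 and Pax5 WT means of 2.42 and 1.33. In the erythroid list, 5 of 18 members were tested, and Gata1 and Car2 rose, to 37.1 ± 6.52 and 10443 ± 405 from 8.96 ± 1.61 and 4833 ± 404. Hbb-bt, an adult beta globin, was at 169.7 ± 24.4 against 117 ± 44.5 and did not pass (adjusted p = 0.0521, and 0.0127 without library 4 of Pax5 WT). Of 15 liver cell genes, 3 were tested. Trf, which encodes transferrin, was at 445, 431, 402 and 465 in Pax5 KO versus 1.89, 6, 5.93 and 6.88 in Pax5 WT, and Afp at 67 ± 13.1 against 0.989 ± 1.98. Alb, Apoa1 and Ttr, defining genes of hepatocytes, had no read in any library. The part of other cell types in these results was not tested beyond these levels.

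**Figure D3:**
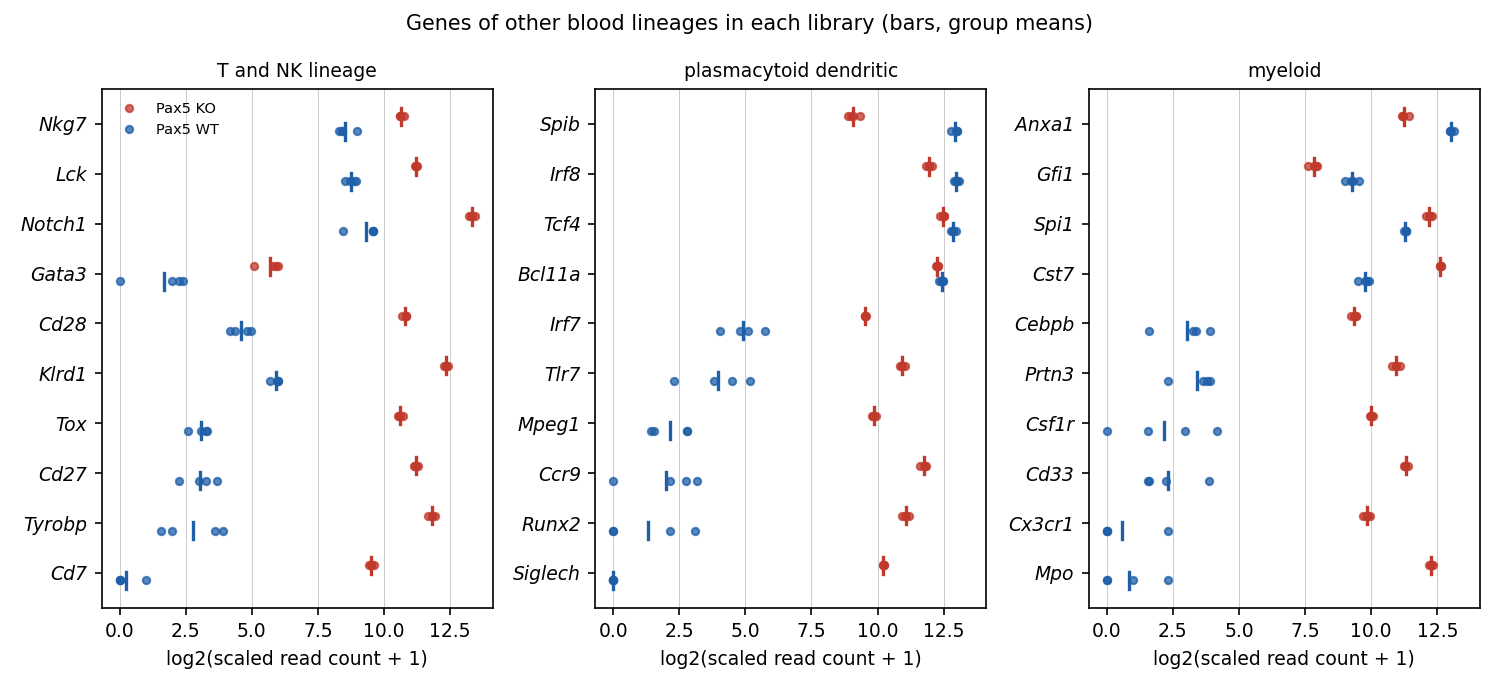
Level of 10 genes each of the T and NK, plasmacytoid dendritic and myeloid lineages in each library, as log2 of the scaled reads plus 1 (x axis). Points are libraries and bars group means, in red for Pax5 KO and in blue for Pax5 WT. Siglech, Mpo and Cd7 sit at or near 0 in Pax5 WT, while Spib, Irf8, Gfi1 and Anxa1 are higher there.

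Receptors for migration followed the same split. Among homing receptors and adhesion molecules, 21 of 30 were higher and 7 lower, against 36.1% and 30.3% of all genes tested. Of the 21, 6 passed the filter through Pax5 KO only. Of 13 tested chemokine receptors, 11 were higher and 2 lower (median 4.66 log2, 5.02 without library 4 of Pax5 WT and 2.22 with 10 in place of 1 added before the log), and 7 of the 11 passed the filter through Pax5 KO only. Ccr2 was at 1525 ± 41.9 against 17.6 ± 10.3 and Cxcr3 at 1598 ± 138 against 17.6 ± 11.2. Cxcr4, which holds progenitors in the marrow and fetal liver niche, was the main exception, at 941, 763, 766 and 942 in Pax5 KO versus 2536, 2530.1, 2718 and 2873 in Pax5 WT (difference -1.65 log2, SE 0.09, adjusted p = 7.04e-09). The other receptor that fell was the scavenger receptor Ackr2, at 0.19 ± 0.381 against 30.1 ± 7.67. S1pr4, a sphingosine phosphate receptor, was at 439 ± 59.9 against 1123 ± 155. The integrin chain gene Itgal was at 3822 ± 112 against 529 ± 153 and its partner Itgb2 at 1852 ± 77.9 against 1299 ± 33 (difference 0.51 log2, SE 0.06, adjusted p = 1.57e-05).

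The P2 purinergic receptors, which sense extracellular nucleotides, were mostly higher in Pax5 KO. Of 11 tested, 10 were higher, 4 of them through Pax5 KO only, and none lower (median 4.11 log2). By at least 1 on the log2 scale 9 (81.8%) rose, against 15.6% of all genes tested. Genes that passed the filter through 1 group only had to differ. Among the rest, 6 of 7 were higher, against 3721 of 10991 over all genes. P2ry14, the receptor of UDP-sugars, was at 2726, 2640.4, 2677 and 2831 in Pax5 KO versus 0, 0, 5.93 and 11.2 in Pax5 WT. P2ry12 was at 3216, 2965, 3371 and 3270.1 against 9.45, 2, 0 and 5.16, and P2ry13 at 997 ± 67.4 against 3.22 ± 2.34. The ion channel P2rx1 was at 257, 234, 294 and 269 and had no read in Pax5 WT, at least 92.6-fold higher. P2rx3 and P2rx4 rose by 0.56 and 1.61 log2, and only P2ry1 did not pass.

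Some of the changed genes were neighbours. In the order of 11565 tested genes along the chromosomes of GENCODE M21, 28 runs of at least 3 adjacent tested genes differed by at least 3 on the log2 scale in the same direction, 24 of them higher and 4 lower in Pax5 KO, with 95 genes in all, out of 727 genes higher and 230 lower by that size. The longest run held 6 genes of the NK receptor complex on chromosome 6, Klre1, Klrd1, Klrk1, Klri1, Klri2 and Klra17, with log2 differences of 4.79 to 8.21. Runs of 5 were the interleukin-1 receptor cluster on chromosome 1 (Il1r2, Il1r1, Il1rl2, Il18r1 and Il18rap), the Cd300 cluster on chromosome 11 and the C-type lectins Clec4a3, Clec4a2, Clec4d and Clec4e with Cd163 on chromosome 6. Cd28, Ctla4 and Icos formed a run of 4 with Raph1. P2ry12, P2ry13 and P2ry14 adjoin on chromosome 3, Hoxa5, Hoxa7 and Hoxa9 on chromosome 6, and Hoxb6, Hoxb7 and Hoxb8 on chromosome 11. Of the runs that fell, one held Vpreb3 with Mmp11 and Chchd10, another Grb7, Ikzf3 and Zpbp2, another Cd79b with Gh and Scn4a, and the last Dkk3, Tead1 and Arntl. The libraries carry no strand, so reads from overlapping neighbours on opposite strands cannot be separated.

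Antigen presentation genes were divided within a single pathway. The classical class II genes and their activator fell from already low levels. H2-Ab1 was at 23.1 ± 11.8 against 144 ± 12.1, H2-Aa at 8.19 ± 12.2 against 34.7 ± 9.69 and Ciita at 2.92 ± 3.16 against 24 ± 5.94. H2-Ob, which inhibits peptide loading in B cells, was at 484, 579, 423 and 394 in Pax5 KO versus 1954, 1948, 1922 and 2092 in Pax5 WT (difference -2.09 log2, SE 0.11, adjusted p = 5.08e-09). The loading catalyst rose: H2-DMa was at 1341, 1386, 1279.8 and 1352 against 34, 64, 49.4 and 58.5 (difference 4.71 log2, SE 0.17, adjusted p = 1.82e-10) and H2-DMb2 at 578 ± 15.5 against 44.6 ± 10.9. Cd86, a costimulatory ligand, was at 612 ± 69.2 against 3.37 ± 3.52, and Cd74, the invariant chain, at 2384 ± 113 against 1631 ± 160.4 (difference 0.55 log2, SE 0.08, adjusted p = 4.87e-05). Of 16 tested genes in this list, 8 were higher and 7 lower, where 36.1% of all genes tested were higher and 30.3% lower. Of 20 tested class I genes, 10 were higher, 2 lower and 8 not past the threshold. B2m, the light chain, rose by 0.46 log2 and the class I activator Nlrc5 was at 1284 ± 176 against 498 ± 170.0.

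Interferon-response genes were higher as a group. Of 43 tested, 35 were higher, 4 of them through Pax5 KO only, and 4 lower (median 1.44 log2, and 1.08 with a filter at 100). By at least 1 on the log2 scale 24 (55.8%) rose, against 15.6% of all genes tested. Genes that passed the filter through 1 group only had to differ. Among the rest, 31 of 39 were higher and 4 lower, against 3721 and 3379 of 10991 over all genes. Ifitm1 was at 63277 ± 2209.6 against 7242 ± 797 and Ifitm3 at 11342 ± 553 against 1581 ± 115. The antiviral genes Oasl2, Rsad2 and Ifit1 were low in Pax5 KO and nearly off in Pax5 WT, at 284 ± 37.5 against 6.75 ± 4.03, 169.8 ± 18.4 against 4.46 ± 3.07 and 275 ± 28.2 against 10.8 ± 8.77. Samd9l was at 6505 ± 850.1 against 588 ± 161. The 4 members that fell were Ifit2 and the guanylate-binding proteins Gbp2, Gbp3 and Gbp7, with Gbp3 at 309, 285, 363 and 291 in Pax5 KO versus 1672, 1606, 1599.6 and 1788 in Pax5 WT (difference -2.42 log2, SE 0.09, adjusted p = 2.97e-10) and Gbp7 at 2373 ± 79.4 against 5916 ± 82.2. Of the receptors that these genes respond to, Ifnar2 was at 3895 ± 106 against 1487 ± 117 and Ifngr1 at 5327 ± 96.2 against 2385 ± 126. Among innate sensors, Cgas, the DNA sensor, was at 1099 ± 67 against 59.9 ± 17.1, while Tlr4, the receptor of bacterial lipopolysaccharide, was at 80.7, 109, 121 and 91 in Pax5 KO versus 1119.9, 1127, 1272 and 847 in Pax5 WT (difference -3.43 log2, SE 0.16, adjusted p = 1.37e-09).

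**Figure D4:**
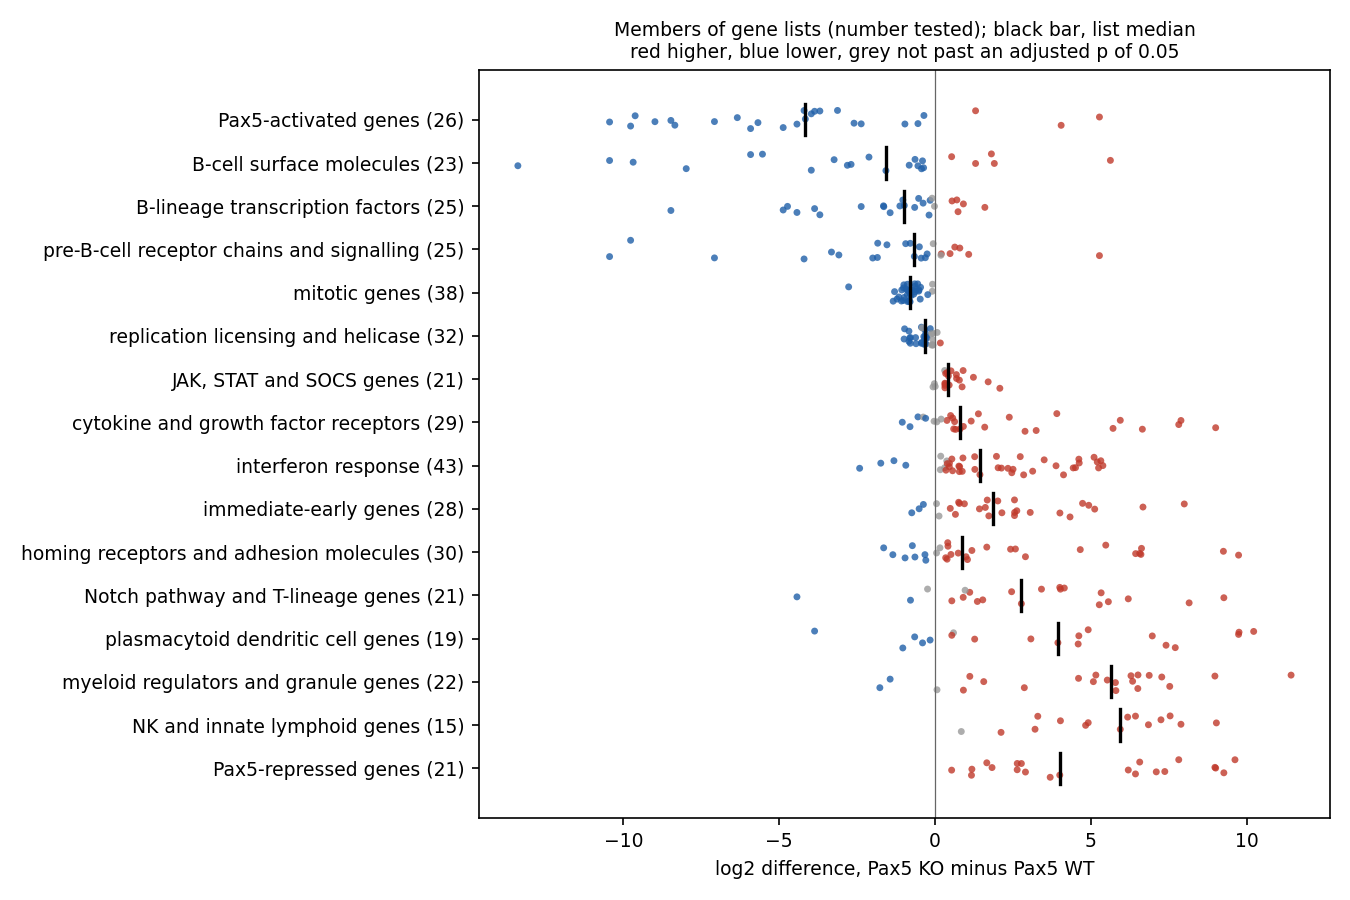
Log2 difference of each tested member of 16 gene lists (x axis, Pax5 KO minus Pax5 WT). Each point is a gene, red if higher, blue if lower and grey if not past an adjusted p of 0.05, and black bars are list medians. Pax5-activated genes have a median of -4.18 and Pax5-repressed genes of 4.00, while mitotic genes all lie below 0, with a median of -0.82.

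Mitotic and replication genes were mostly lower in Pax5 KO, and regulators of the G1 phase changed in both directions. Of 38 tested mitotic genes, 36 were lower and none higher (median -0.82 log2), 9 of them by at least 1 on the log2 scale. Over all genes tested, 30.3% were lower and 36.1% higher. Cdc25b, a phosphatase that activates Cdk1, was at 949, 986, 1000.4 and 1020.0 in Pax5 KO versus 6584, 6964, 7244 and 6257 in Pax5 WT (difference -2.77 log2, SE 0.06, adjusted p = 2.74e-12), followed by Ndc80 at a log2 difference of -1.34. Kif23 and Anln did not pass, at -0.09 and -0.08, and had adjusted p of 0.0495 and 0.0238 without library 4 of Pax5 WT. Mki67 was at 7531 ± 1864 against 18217 ± 2400.4. Of 32 replication licensing genes, 23 were lower and 1 higher (median -0.33 log2), none by more than 1. Their median was -0.24 when libraries were scaled to equal total reads. The 18 reference genes had a median of -0.23, and -0.14 with that scaling. Pcna was at 10907 ± 177 against 21744 ± 1781, while Mcm6, a helicase subunit, was at 42098 ± 3371 against 40045 ± 363 and did not pass (adjusted p = 0.331).

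The D cyclins changed in different directions. Ccnd3, the cyclin that pre-B-cell receptor signals act on, was at 6772, 7085, 6859 and 7225 in Pax5 KO versus 25347, 25415, 25559 and 24065 in Pax5 WT (difference -1.85 log2, SE 0.05, adjusted p = 1.13e-11). Ccnd2 was at 20365, 18715, 20405 and 21116 against 9855, 9812, 10722 and 10405 (difference 0.98 log2, SE 0.06, adjusted p = 1.13e-08), and Ccnd1 at 626 ± 68.2 against 166 ± 15.1. The kinase genes Cdk4 and Cdk6 were at 30165 ± 896 against 31008 ± 2268 (not past, adjusted p = 0.59) and 13156 ± 941 against 8088 ± 484. The Ink4 inhibitors Cdkn2c and Cdkn2d fell, at 555 ± 31.3 against 2472 ± 88.6 and 1011 ± 57.5 against 3591 ± 338, and Cdkn1a, which encodes p21, rose, at 3885 ± 364 against 1159.9 ± 93.9. Cdkn2a, which encodes p16 and p19Arf, had 2 reads in all Pax5 KO libraries together and was at 55.8, 39, 67.2 and 71.4 in Pax5 WT. E2f2 was at 805 ± 47.3 against 7613 ± 777, the largest change among the E2F factors of this list. In deoxynucleotide synthesis 16 of 25 genes fell and 3 rose, where 30.3% of all genes tested were lower and 36.1% higher. Dck, the deoxycytidine salvage kinase, was at 7717 ± 545 against 25278 ± 1027 and Samhd1, which degrades deoxynucleotides, at 1864 ± 72 against 657 ± 34.9.

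Survival and chromatin genes included a few large changes among many small ones. Bcl2 was at 1988, 1628, 2075 and 1971 in Pax5 KO versus 209, 243, 206 and 145 in Pax5 WT (difference 3.27 log2, SE 0.15, adjusted p = 9.98e-10), and Bcl2l1, which encodes Bcl-xL, was at 1885, 1971, 1956 and 2003 against 5666, 6197, 5866 and 5194 (difference -1.55 log2, SE 0.06, adjusted p = 5.32e-10). These anti-apoptotic genes thus differed in opposite directions. Mcl1, the third of them, was at 9169 ± 442 against 9030.1 ± 327 and did not pass (adjusted p = 0.745). Dnmt3b, a de novo DNA methyltransferase, was at 9991, 10709, 10653 and 9653 in Pax5 KO versus 1130.3, 1033, 1049 and 1042 in Pax5 WT (difference 3.27 log2, SE 0.06, adjusted p = 4.65e-13), while Dnmt3a was at 2127 ± 168 against 2138 ± 255 (adjusted p = 0.977). Tet1 was at 705 ± 40.6 against 153 ± 41.7. Ezh2, the polycomb methyltransferase that B-cell progenitors need for distal heavy chain rearrangement, was at 7375 ± 259 against 17809 ± 903.

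Genes of glycolysis and glucose transport showed no shared direction. Of 33 tested, 14 were higher and 15 lower (median -0.02 log2, and 0.07 when libraries were scaled to equal total reads). All genes tested were higher in 36.1% of cases and lower in 30.3%. The abundant enzymes of lower glycolysis fell, among them Eno1, at 32809.6 ± 1635 against 65529.5 ± 4606, and Ldha, at 53475 ± 2614 against 91457 ± 5413. Pfkp, the platelet-type phosphofructokinase, was at 509 ± 57 against 1590.1 ± 91.4. The transporters Slc2a3 and Slc2a6 rose, at 1133 ± 45 against 442 ± 37.4 and 175 ± 23.6 against 21.5 ± 8.93. Among amino acid carriers, Slc1a5, a glutamine transporter, was at 3304, 3515, 3275 and 3291 in Pax5 KO versus 18663, 18661, 18979 and 17093 in Pax5 WT (difference -2.45 log2, SE 0.06, adjusted p = 2.42e-12).

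Immediate-early genes, which are transcribed within minutes of a stimulus, were higher in 23 of 28 tested cases and lower in 3 (median 1.87 log2). These shares were 36.1% and 30.3% over all genes tested. Egr2 was at 888, 1129.9, 976 and 954 in Pax5 KO versus 1.89, 10, 5.93 and 0 in Pax5 WT, and Egr3 at 426 ± 49.1 against 4.77 ± 4.42. Fos was at 13668, 13370.2, 13072 and 13419 against 797, 817, 881 and 833 (difference 4.01 log2, SE 0.06, adjusted p = 5.60e-14) and Nr4a1, an orphan nuclear receptor induced by antigen receptor signals, at 6554, 5646, 4964 and 5138 against 163, 185, 146 and 141. Jund and Dnajb1 did not pass (adjusted p = 0.0222 for Dnajb1 without library 4 of Pax5 WT), and the heat-shock genes Hspa1a and Hspa1b rose by 2.15 and 0.76 log2. The Hspa1b call was lost in 5 of 8 fits that left out a library, with adjusted p of 0.0569 to 0.0887, and 0.0829 without library 4 of Pax5 WT. These genes also respond to tissue handling and sorting, whose part was not tested. The feedback inhibitors of ERK signalling, which is the pathway upstream of Egr and Fos, rose in 10 of 16 cases and fell in 2. All genes tested were higher in 36.1% of cases and lower in 30.3%. Spry4 was at 246 ± 35.6 against 3.12 ± 1.55, Spry1 at 2681, 2381, 2564 and 2358 against 320.4, 313, 219 and 274 (difference 3.16 log2, SE 0.12, adjusted p = 1.71e-10) and the ERK phosphatase Dusp5 at 11949 ± 204 against 1409 ± 49.9. Dusp6 was at 5675 ± 134 against 2389 ± 82.2, and Spred1 and Rasa1 did not pass, with adjusted p of 0.00215 and 0.0466 without library 4 of Pax5 WT.

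Genes of protein synthesis and turnover and of complex I of the respiratory chain were slightly lower in most cases. Of 81 cytosolic ribosomal protein genes, 74 were lower and 1 higher (median -0.39 log2), and of 77 mitochondrial ribosomal protein genes 56 were lower and 2 higher (median -0.34 log2). Rpl3l, the muscle paralogue of Rpl3, was the cytosolic member that rose, at 61.5 ± 14.2 against 21.5 ± 10.4. Complex I subunits were lower in 26 of 36 cases and higher in 1, and proteasome subunits lower in 29 of 38 and higher in none. Over all genes tested, 30.3% were lower and 36.1% higher. Library 4 of Pax5 WT moved with these families. Its ribosomal protein genes lay at a median of 0.295 log2 above the other Pax5 WT libraries and its complex I genes at 0.321 above. Without it, the medians were -0.32 for cytosolic ribosomal, -0.29 for mitochondrial ribosomal and -0.23 for complex I genes. When libraries were scaled to equal total reads, these medians were -0.30, -0.25 and -0.23. The 18 reference genes had a median of -0.23 log2 (-0.14 with that scaling), with 10 lower and 4 higher.

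**Figure D5:**
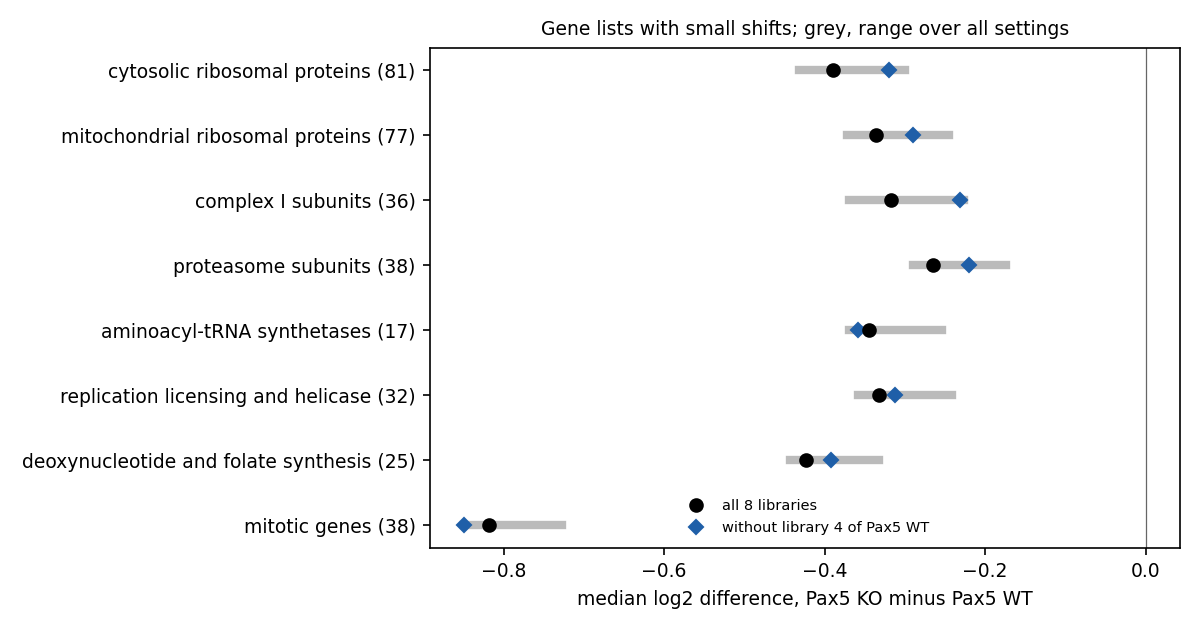
Median log2 difference of 8 gene lists with small shifts (x axis, Pax5 KO minus Pax5 WT). Black points use all 8 libraries, blue diamonds leave out library 4 of Pax5 WT and grey bars span all settings, and all 8 medians stay below 0, with mitotic genes lowest at -0.82.

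The large families were mixed in direction. Over all genes tested, 36.1% were higher and 30.3% lower. Of 321 tested Krüppel-type Zfp genes, 94 were higher, 54 lower and 173 not past the threshold, and 286 differed by less than 1 on the log2 scale. Of 197 solute carriers, 87 were higher and 42 lower, and 46 (23.4%) rose by at least 1, against 15.6% of all genes tested. Of the 197, 8 passed the filter through Pax5 KO only and 3 through Pax5 WT only. Among the other 186, 79 were higher and 39 lower. Of 5 tested C/EBP genes 4 were higher and 1 lower. Cebpa, Cebpb and Cebpd, factors of myeloid gene expression, rose by 5.80, 6.34 and 5.79 log2 and Cebpz by 0.30, and Cebpg was at 2179.8 ± 144 against 3130.5 ± 73.4 (log2 difference -0.52). Cebpe, a factor of late granulocytes, was not tested, at means of 1.53 and 0 in Pax5 KO and Pax5 WT. The sialic acid-binding Siglec family was split between B-lineage members that fell and myeloid members that rose. Siglecg and Cd22 were at 49 ± 12.8 against 2499 ± 65.7 and 786 ± 59.9 against 5541 ± 635, and Siglece was at 138, 118, 96 and 93.9 in Pax5 KO and at 0 in Pax5 WT, at least 39.1-fold higher. In the TNF receptor family, Tnfrsf19 fell from 7255 ± 864 to 241 ± 13.4 (difference -4.90 log2, SE 0.09, adjusted p = 5.27e-13) and Tnfrsf1a rose from 63.1 ± 15.5 to 1188 ± 26.4. In the semaphorin and plexin family, Plxna1 and Sema5a fell, at 102 ± 19.3 against 1243 ± 305 and 3.3 ± 4.44 against 267 ± 45.7, and Plxnc1 and Sema4a rose, at 1488 ± 88.3 against 220.1 ± 47.1 and 3501 ± 99.8 against 851 ± 75.1.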

How the data were processed

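RNA from sorted fetal liver cells was made into full-length libraries with no strand information, per the labels' protocols. Per the submitters' processing notes, the tools were fastp, STAR 2.7.8a and featureCounts with the genome build mm39. The sources used here do not state their settings, nor how reads that fit more than 1 gene were counted. The deposited table is named for raw counts, but its values behave as a signal that the authors scaled: each column holds whole reads divided by 1 factor per library, and 100% of values came out as whole multiples within a tolerance of 0.001. The deposited signal was used as it stands, and read totals were recovered from the step of each column. The table holds 21885 genes by identifier, of which 21780 matched a symbol in GENCODE M21, and 6232 had no read in these 8 libraries. GENCODE M21 describes the older build GRCm38, so it gave names, exon lengths and the order of genes only, and promoter sequences came from the RefSeq table of GRCm38.p6.

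The groups were compared with limma 3.58.1 in R 4.3.3 on log2(value + 1) with trended and robust variances, two-sided, over genes at 10 or more in at least 4 of the 8 libraries, with Benjamini-Hochberg adjustment over all of them. Fold bounds for genes without a read in a group use a floor of 3 reads per library, which covers counting error only. Count tests on the recovered reads used edgeR 4.0.16 and DESeq2 1.42.0. Further alternatives were TMM and total-read scaling, a value of 10 added before the log, no filter, a filter at 100, all 12 libraries in the fit, limma without trend and robust variances, a replicate block, and each library left out in turn. The test was also run on simulated data with known changes.

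Genes named were Pax5, the 12 largest differences per direction with a mean of 100 or more in the group where they were higher, and, per list, up to 3 members per direction with the largest difference and up to 2 abundant members with the smallest. Members named for their role were chosen after their values were seen. The members and lists were chosen with earlier results of these data known. Some genes that this rule or a list covers are counted but not reported here by name.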

Additional observations from a re-analysis of the deposited data

Results flagged for a closer look

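Each gene named in the text with a group mean of at least 10 was searched for a single library that stood apart from the other 3 of its group, by a gap to its nearest neighbour above Dixon's critical value. This was so in 45 of 488 groups of values, or 9.22%, where chance alone gives about 1 in 20. Library 4 of Pax5 WT held 20 of them.

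Library 1 of Pax5 KO lay above the others for Ebf1 at 6639 against 5725 to 5849.6 and S100a8 at 195 against 137 to 145. Library 1 of Pax5 KO lay below the others for Cebpd at 165 against 179 to 181, Jchain at 99839 against 108950.0 to 110840.0, Ldha at 49598 against 54372 to 55303 and Tnfrsf19 at 221 against 246 to 249.

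Library 1 of Pax5 WT lay above the others for Dnmt3b at 1130.3 against 1034 to 1049, Klf3 at 1181 against 917 to 939 and Klhl14 at 286 against 165 to 177. Library 1 of Pax5 WT lay below the others for Klrd1 at 51 against 61.1 to 63.3 and S1pr4 at 890.2 against 1198 to 1202.

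Library 2 of Pax5 KO lay above the others for Anxa1 at 2759 against 2328 to 2372, P2rx4 at 690.3 against 609.7 to 617 and Slc1a5 at 3515 against 3275 to 3304. Library 2 of Pax5 KO lay below the others for Cd28 at 1624 against 1803 to 1833, Elane at 22.2 against 54.8 to 59.1 and Raph1 at 141 against 241 to 263.

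Library 2 of Pax5 WT lay below the others for Prtn3 at 4.00 against 11.3 to 13.8.

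Library 3 of Pax5 KO lay above the others for Prkcb at 3967 against 3626 to 3667. Library 3 of Pax5 KO lay below the others for Dclre1c at 480.0 against 565 to 577, Id3 at 597 against 687 to 707 and Irf7 at 726 against 744 to 748.

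Library 4 of Pax5 KO lay below the others for Gbp2 at 146 against 180.4 to 183, Meis1 at 822 against 967 to 972 and Ndc80 at 3109 against 3425 to 3479.

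Library 4 of Pax5 WT lay above the others for B2m at 64433 against 50049 to 52246, Car2 at 5434 against 4579 to 4698, Cd47 at 22518 against 19503 to 19717 and Pfkp at 1727 against 1542 to 1547. Library 4 of Pax5 WT lay below the others for Anln at 1973 against 2368 to 2400.4, Ccnd3 at 24065 against 25347 to 25559, E2f2 at 6457 against 7924 to 8135 and Gfra2 at 2117 against 3011 to 3232. It also lay below them for Kit at 3656 against 5540.4 to 5695, Mrc1 at 0 against 13.2 to 16.8, Notch1 at 345 against 776 to 776 and Pim1 at 1562 against 1949 to 1996. It also lay below them for Plxna1 at 797 against 1340.1 to 1487, Prkcb at 12277 against 13614 to 13856, Ptprc at 4831 against 5508 to 5609.7 and Slc1a5 at 17093 against 18661 to 18979. It also lay below them for Slc2a3 at 386 against 454 to 466, Spib at 6981 against 7995 to 8194, Tgfbr2 at 1697 against 2113 to 2200.0 and Tmc7 at 336 against 482 to 517.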

How the results depend on the processing

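Of 7684 genes past the threshold, the other settings that used the same 11576 genes and 8 libraries kept 7031 to 7669. With all 12 libraries in the fit, which share 1 estimate of the spread with the leukaemias, 2352 genes were higher and 1732 lower, 4084 of the 7684 calls were kept, and 44 of the 292 named genes tested lost their call. A filter at 100 left 9881 genes and 1159 that were higher by at least 1 on the log2 scale, since fewer genes were tested. Without any filter on low values 2377 genes were higher and 993 lower by that size. Scaling to equal total reads raised the share of higher calls from 54.3% to 62.7%. When each library was left out in turn, 3820 to 4233 genes were higher and 3255 to 3681 lower, and 1763 to 1830 and 784 to 803 at a log2 size of at least 1. No named gene reversed its direction while past the threshold, under any of the 18 other settings. Without library 4 of Pax5 WT, Anln, Dnajb1, Hbb-bt, Kif23, Kit, Rasa1 and Spred1 passed and Hspa1b did not. Gfra2 missed without library 3 of Pax5 WT, Mcm6 and Dnajb1 passed without library 1 of Pax5 KO, Prkdc passed without library 1 and Hbb-bt without library 2 of Pax5 WT. Bcl11a missed without library 2 of Pax5 KO and without library 1 or 3 of Pax5 WT, and Hspa1b without library 3 of Pax5 KO or any single library of Pax5 WT. Dkk3 missed in DESeq2, at an adjusted p of 0.166. The causes were not tested. The median log2 difference of the Sox family changed sign with the filter at 100, to -0.0171. Differences among genes with few reads depended on the value added before the log.

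The replicate numbers share only a number: the deviations of same-numbered libraries correlated at -0.00547 to 0.0922. With the replicate number as a block, 4236 genes were higher and 3540 lower, 1817 and 798 by at least 1 on the log2 scale, and Hbb-bt was the one named gene whose call changed. No library of Pax5 WT apart from library 4 had a typical deviation above 0.142 log2.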
